A study of Mus musculus with 12 samples.

Results

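Astrocytes respond to the glutamate that neurons release, and the receptors that let them do so fall into a G protein-coupled and an ion channel class. The genes described here are 10 receptor genes known from astrocytes: the metabotropic receptors Grm3, Grm5 and Grm7, the AMPA receptor subunits Gria1, Gria2 and Gria4, the kainate receptor subunit Grik5, and the NMDA receptor subunits Grin1, Grin2c and Grin3a. They were chosen by name from the deposited expression table, where each of the 10 has 1 row among 56941 gene rows. Metabotropic receptors signal through G proteins: mGluR5 acts through Gq and the release of calcium from stores, whereas mGluR3 and mGluR7 act through Gi and lower cyclic AMP. AMPA, kainate and NMDA receptors are channels of 4 subunits, and the subunits present set their calcium permeability. The AMPA subunit GluA2, the product of Gria2, keeps calcium out once its transcript has been edited at the pore, and NMDA receptors need the GluN1 subunit, the product of Grin1.

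The transcripts were measured in hippocampal astrocytes of adult, naive male mice, sorted by fluorescence with an antibody against the astrocyte surface antigen ACSA-2. Mice labelled cKO have the genotype GfapcreERT2:Tnfrsf1bfl/fl, in which a tamoxifen-inducible Cre under the promoter of Gfap deletes a floxed Tnfrsf1b, the gene of the TNF receptor TNFR2. Mice labelled Ctrl carry Tnfrsf1bfl/fl without the Cre, so both groups share the floxed allele. Gfap is also active in neural stem cells, and the labels used here give neither the age in weeks nor the induction scheme. There are 12 libraries, an S1 and an S2 for each of the A numbers A1, A2 and A8 (Ctrl) and A4, A9 and A10 (cKO). The labels define neither letter, and S1 and S2 were averaged, which leaves 3 units a genotype. Nothing in the labels says whether an A number is 1 animal or a pool, so the tests measure only the spread between these units.

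Values are FPKM, fragments per kilobase of exon and per 1000000 assigned fragments. The exonic length listed for a gene is 3049 bases for Grm3, 5037 for Grin2c, 9700 for Grin1 and 15548 for Gria2. How much of that length the transcripts present cover was not tested. Orders, shares and ratios between genes below therefore hold for FPKM at these listed lengths. A value written with ± is the mean and SD over the 3 units of a genotype (n = 3). Depth recovered from the steps between low values ran from 8655936 to 15749508 fragments in the Ctrl libraries and from 8725597 to 17661661 fragments in the cKO libraries. Tnfrsf1b was listed at 0 in 9 of the 12 libraries and exceeded 3 fragments in 2, both of A4, where it reached 0.163 FPKM. The deleted gene therefore did not check the genotype labels, and its highest values were in A4, a unit labelled cKO. A4 also had the highest score of all units for a list of microglial genes (2.09 as mean log2(FPKM + 1)). The source of the Tnfrsf1b fragments in A4 was not tested. Below, cKO means the libraries labelled cKO. The astrocyte marker list, 10 genes that include Aqp4 and Slc1a2, scored 7.50 to 7.72 in Ctrl and 7.80 to 7.90 in cKO as mean log2(FPKM + 1). The oligodendrocyte list of 8 genes scored 6.05 to 7.18 in Ctrl and 4.40 to 5.68 in cKO, so oligodendrocyte RNA was present in every unit and lower in each cKO unit than in any Ctrl unit (two-sided exact permutation p = 0.1, the smallest that 3 against 3 allows). In bulk RNA, fewer cells of a type and less RNA per cell cannot be told apart.

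Sequences upstream of 3 of the genes are shown because Grm3 and Grin2c had the highest levels of the 10 and Gria2 was the highest AMPA subunit. They are the 250 bases before the transcription start in the RefSeq promoter table of build GRCm38.p6, on the strand of the gene, at chr5:9725353-9725602 (minus strand) for Grm3, chr11:115267244-115267493 (minus strand) for Grin2c and chr3:80802836-80803085 (minus strand) for Gria2. Capitals mark the GC box GGGCGG, the core letters of the Sp1 element, in Grm3 and Grin2c, and a match to the core of RE1 in Gria2.
Grm3: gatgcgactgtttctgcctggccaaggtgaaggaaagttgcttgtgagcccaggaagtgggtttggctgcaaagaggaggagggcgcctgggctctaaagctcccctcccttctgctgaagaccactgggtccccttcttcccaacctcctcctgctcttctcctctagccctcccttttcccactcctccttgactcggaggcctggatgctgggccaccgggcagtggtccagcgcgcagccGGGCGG
Grin2c: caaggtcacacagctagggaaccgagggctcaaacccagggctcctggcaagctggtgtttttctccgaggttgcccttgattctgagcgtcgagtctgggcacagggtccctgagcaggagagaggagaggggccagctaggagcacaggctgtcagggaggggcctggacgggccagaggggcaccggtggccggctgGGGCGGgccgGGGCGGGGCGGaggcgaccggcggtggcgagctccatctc
Gria2: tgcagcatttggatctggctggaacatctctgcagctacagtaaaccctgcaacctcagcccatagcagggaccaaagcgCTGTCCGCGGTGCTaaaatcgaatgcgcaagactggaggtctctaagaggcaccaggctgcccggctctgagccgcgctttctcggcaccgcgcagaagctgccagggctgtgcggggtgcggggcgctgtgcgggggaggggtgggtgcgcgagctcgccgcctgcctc
RE1 is the element that the repressor REST binds in many neuronal genes. In Gria2 its core lies on the opposite strand, with 156 bases between it and the start, and 17 of all 32851 promoter windows of 300 bases (0.0517%) hold it on either strand. The table had windows for 7 of the 10 genes, 8 windows in all since Grm7 has 2. The window of Gria2 was the 1 among the 8 with this match. The GC box was present on either strand in 6 of the 8 windows, against 35.7% of all windows. By gene this is 5 of 7, since the 2 windows of Grm7 overlap and share their GC box. TATAAA was found in 0 of the 8 and in 13.6% of all windows. A loose NF-kB type pattern matched 2 of the 8 windows, those of Grik5 and Grin2c, and 50.8% of all windows. These are matches of letters and carry no measurement of binding.

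Levels of the 10 genes ran from among the highest of all genes to under 1 FPKM, with 1 metabotropic gene above the rest. Grm3 averaged 165 ± 17.4 FPKM in Ctrl and 168 ± 13.9 in cKO, and ranked 124th among the 17540 genes whose FPKM averaged 1 or more. Grin2c (53.0 ± 5.28 FPKM in Ctrl) and Gria2 (41.9 ± 10.3) followed, and their unit values overlapped. Grik5 came next at 15.9 ± 2.23 FPKM, then Gria1 at 9.71 ± 2.29 and Grin3a at 5.05 ± 1.95. The unit ranges of Grm3 and Grin2c did not overlap, nor did those of Gria2 and Grik5, of Grik5 and Gria1, or of Gria1 and Grin3a. Below them, Gria4 (2.48 ± 1.09), Grm7 (1.37 ± 0.888) and Grm5 (1.29 ± 0.109) overlapped in their neighbouring ranges, and Grin3a overlapped with Gria4. Grin1 was lowest, at 0.299 ± 0.257 FPKM. In cKO the first 6 places held the same genes in the same order, and Grm5 (1.95 ± 0.198) stood before Gria4 (0.936 ± 0.772) and Grm7 (0.768 ± 0.385), with overlap between Grm5 and Gria4 and between Gria4 and Grm7.

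**Figure D1:**
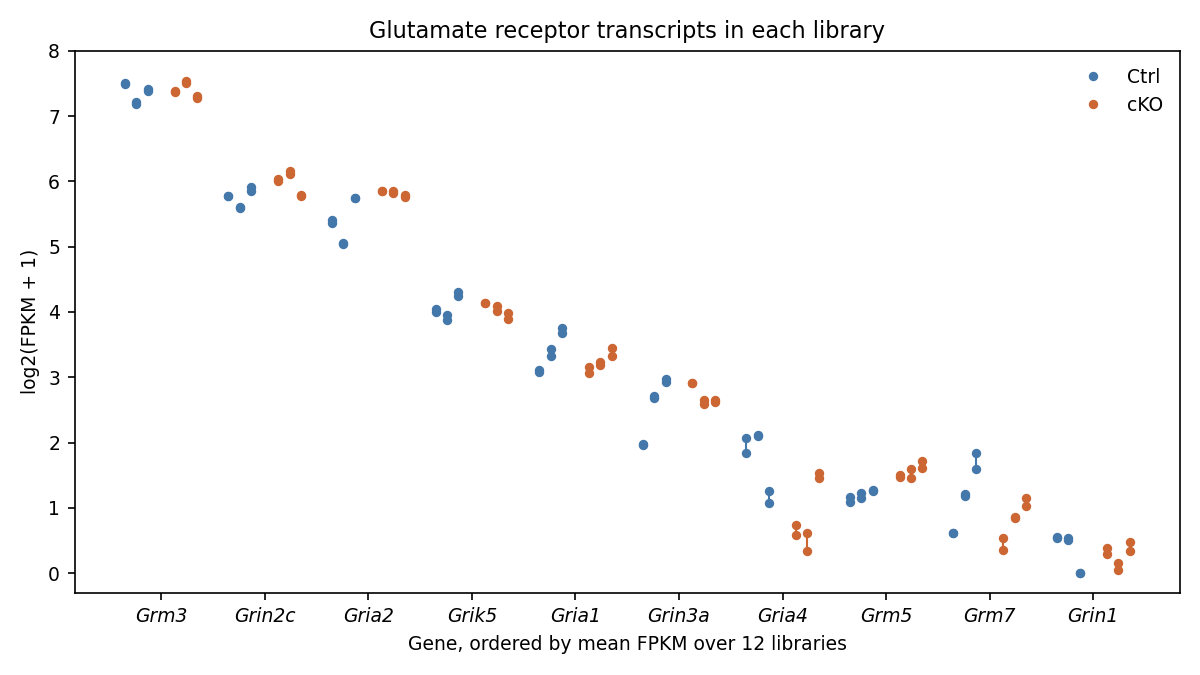
Level of each receptor gene as log2(FPKM + 1), with 1 point per library, a line joining each S1 to its S2, and A numbers in the order A1, A2, A8 (Ctrl) and A4, A9, A10 (cKO). Grm3 lies above all other genes in every library, and Grin1 is lowest in mean level, with Ctrl A8 at or near 0.

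By its labels, the design asks whether deletion of Tnfrsf1b in astrocytes goes with a change in these receptor transcripts. What was compared is the libraries by label, which the level of Tnfrsf1b did not check. Of the 10 genes, 9 reached the mean FPKM of 1 and were tested; Grin1 did not. Limma called 0 of the 9 at an adjusted p under 0.05 and 0 of all 17540 genes tested (0%). At an unadjusted p under 0.05 there were 0 of the 9, against 7.69% of all genes. Over the alternative settings this count ran from 0 to 3. It was 3 (Gria2, Gria4 and Grm5) with voom on recovered fragments, against 7.15% of all genes, and 3 (Gria2, Gria4 and Grin2c) with all 12 libraries and a random effect for the A number, against 8.95%. It was 2 (Gria2 and Gria4) with array weights per A number, against 11.4%, and at most 2 elsewhere. The median log2 difference of the 9 was 0.03, and that of all genes tested -0.01. All 3 cKO units lay above all 3 Ctrl units in Gria2 and Grm5, which is 2 of 9, where 13% of all tested genes did not overlap in either direction and 5.73% did so with cKO higher and 7.26% with cKO lower. The smallest limma adjusted p among the 9 was 0.649 (Gria2) and the largest 0.985 (Grik5).

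**Figure D2:**
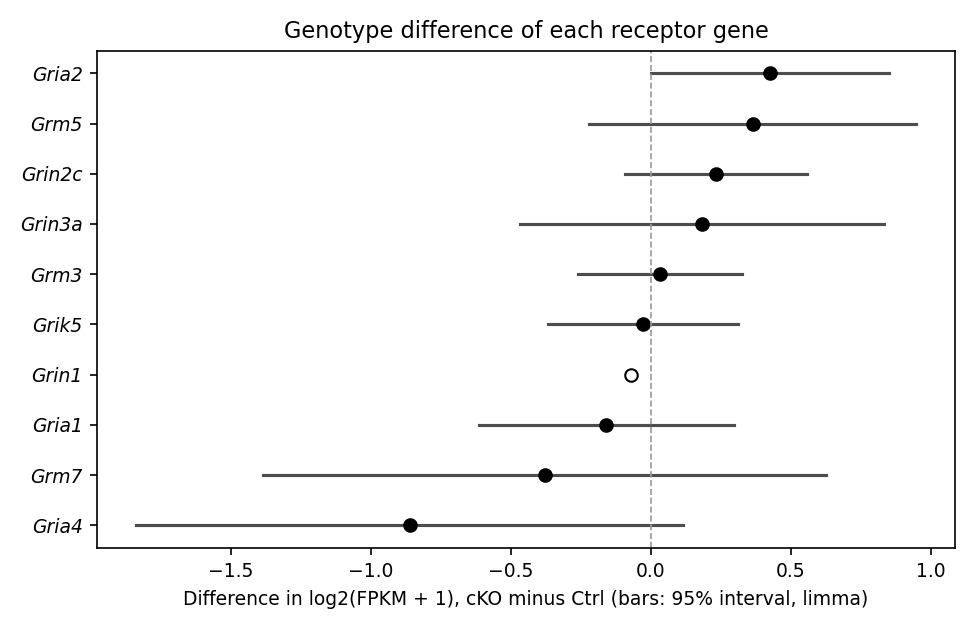
Difference in log2(FPKM + 1) between cKO and Ctrl for each gene, with the 95% interval of the limma fit to 6 units; the open circle is Grin1, which was not tested. Every interval drawn includes 0, narrowly for Gria2, and the widest belong to Grm7 and Gria4.

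Among the metabotropic receptors, Grm3 held nearly all of the transcript and was the steadiest between units. Grm3 (ENSMUSG00000003974, chromosome 5, start 9535541, end 9775170, minus strand, 6 exon entries) encodes mGluR3, the main metabotropic glutamate receptor of adult astrocytes. Its units were 180.4 (A1), 146 (A2) and 168 FPKM (A8) in Ctrl and 166 (A4), 183 (A9) and 156 FPKM (A10) in cKO. The ranges overlapped, with Ctrl A2 below and cKO A9 above all units of the other genotype, and the highest unit was 1.25 times the lowest. The log2 difference was 0.03 (SE 0.12, 95% interval -0.26 to 0.33, limma adjusted p = 0.981), which bounds a change of Grm3 more closely than that of any other tested member. Between 3878 and 8976.5 fragments a library stood behind these values.

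Grm5 was low in every unit and higher in every cKO unit than in any Ctrl unit. Grm5 (ENSMUSG00000049583, chromosome 7, start 87233376, end 87784115, plus strand, 40 exon entries) encodes mGluR5, the Gq-coupled receptor known for calcium responses in young astrocytes. Ctrl units were at 1.19 (A1), 1.29 (A2) and 1.40 FPKM (A8), and cKO units at 1.81 (A4), 1.87 (A9) and 2.18 FPKM (A10). By library, the lowest cKO value was 1.74 FPKM and the highest Ctrl value 1.43. S1 and S2 of an A number form 1 unit here, so this restates the order of the units. The ratio of the means was 1.51, and the log2 difference 0.36 (SE 0.25, 95% interval -0.22 to 0.95, limma adjusted p = 0.833). On the recovered fragments, where no pseudocount of 1 dampens a low gene, the log2 difference was 0.60 (voom, limma adjusted p = 0.654, range over the alternatives 0.501 to 1). Leaving out any single A number kept it between 0.31 and 0.40 on the log2(FPKM + 1) scale. The ratio of Grm3 to Grm5 was 152 in A1, 113 in A2 and 119 in A8, and 91.7 in A4, 97.7 in A9 and 71.4 in A10, without overlap. Grm3 differed little between units, so this ratio restates the values of Grm5 and is not a second result. It was given no test.

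Grm7 varied more between units than between genotypes. Grm7 (ENSMUSG00000056755, chromosome 6, start 110622542, end 111544191, plus strand, 36 exon entries) encodes mGluR7, a Gi-coupled receptor best known from presynaptic terminals. It was 0.531 (A1), 1.29 (A2) and 2.30 FPKM (A8) in Ctrl and 0.367 (A4), 0.801 (A9) and 1.13 FPKM (A10) in cKO. The ranges overlapped, and the highest unit was 6.26 times the lowest. The log2 difference was -0.38 (SE 0.42, 95% interval -1.38 to 0.63, limma adjusted p = 0.911), and -0.11 without A8. As few as 18 fragments stood behind a Grm7 value. Together Grm3 made up 97.8% to 99.0% of the summed FPKM of the 8 metabotropic genes in a unit, Grm5 0.652% to 1.37% and Grm7 0.218% to 1.34%.

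Gria2 carried most of the AMPA receptor transcript and differed most in size relative to its error. Gria2 (ENSMUSG00000033981, chromosome 3, start 80588757, end 80710142, minus strand, 96 exon entries) encodes GluA2. It was 40.9 (A1), 32.2 (A2) and 52.7 FPKM (A8) in Ctrl and 56.9 (A4), 56.1 (A9) and 53.7 FPKM (A10) in cKO. No unit of cKO fell to the level of a Ctrl unit, but the gap was small: the highest Ctrl library stood at 52.7 and the lowest cKO library at 53.2 FPKM. The spread was 10.3 FPKM in Ctrl and 1.65 FPKM in cKO, so the Ctrl units decide the size of the difference. The log2 difference was 0.43 (SE 0.18, 95% interval -0.00020 to 0.85, limma adjusted p = 0.649), which did not pass. It was 0.25 without A2 and 0.60 without A8, with limma adjusted p values of 0.787 and 0.157 and a range over the alternatives of 0.157 to 1.

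Gria1 and Gria4, the other AMPA subunits, were lower on average in cKO, and neither passed. Gria1 (ENSMUSG00000020524, chromosome 11, start 56902213, end 57221070, plus strand, 55 exon entries) encodes GluA1, whose homomers pass calcium. It was 7.59 (A1), 9.41 (A2) and 12.1 FPKM (A8) in Ctrl and 7.67 (A4), 8.29 (A9) and 9.49 FPKM (A10) in cKO. The groups overlapped, the log2 difference was -0.16 (SE 0.19, 95% interval -0.61 to 0.30, limma adjusted p = 0.919), and without A8 it was -0.0012. Gria4 (ENSMUSG00000025892, chromosome 9, start 4417896, end 4796234, minus strand, 61 exon entries) encodes GluA4, a fast-gating subunit. Its units were 2.88 (A1), 3.32 (A2) and 1.24 FPKM (A8) in Ctrl and 0.587 (A4), 0.401 (A9) and 1.82 FPKM (A10) in cKO. A8 and A10 crossed over, so the groups overlapped through 1 unit on each side. Gria4 had the largest difference of the tested members, -0.86 on the log2 scale (SE 0.41, 95% interval -1.84 to 0.11, limma adjusted p = 0.710), with 15 to 296 fragments a library behind it. On recovered fragments it was -1.55 (voom, limma adjusted p = 0.5999, range over the alternatives 0.288 to 1), and it was -1.15 without A8 and -1.17 without A10.

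The AMPA subunits can also be read as a composition of FPKM, which rests on the listed exonic lengths. Gria2 made up 78.1% (A1), 70.8% (A2) and 79.7% (A8) of the summed FPKM of Gria1 to Gria4 in Ctrl, and 86.8% (A4), 86.1% (A9) and 82.2% (A10) in cKO. The 2 groups did not overlap, at 76.2% ± 4.73 and 85.0% ± 2.50. Gria1 made up 17.9% ± 3.11 in Ctrl and 13.0% ± 1.42 in cKO, and A1 and A10 were both at 14.5%. Gria4 made up 1.88% to 7.29% in Ctrl and 0.614% to 2.79% in cKO, and Gria3, the fourth AMPA gene, at most 1.84% in any unit. The ratio of Gria2 to Gria1 was 3.42 to 5.38 in Ctrl and 5.66 to 7.41 in cKO. The sum over the 4 genes was 52.3, 45.5 and 66.1 FPKM in A1, A2 and A8 and between 65.2 and 65.5 FPKM in the 3 cKO units, so A8 was above the cKO units in total and below them in the Gria2 share. These shares were computed after the values of the single genes were known and were given no test.

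**Figure D3:**
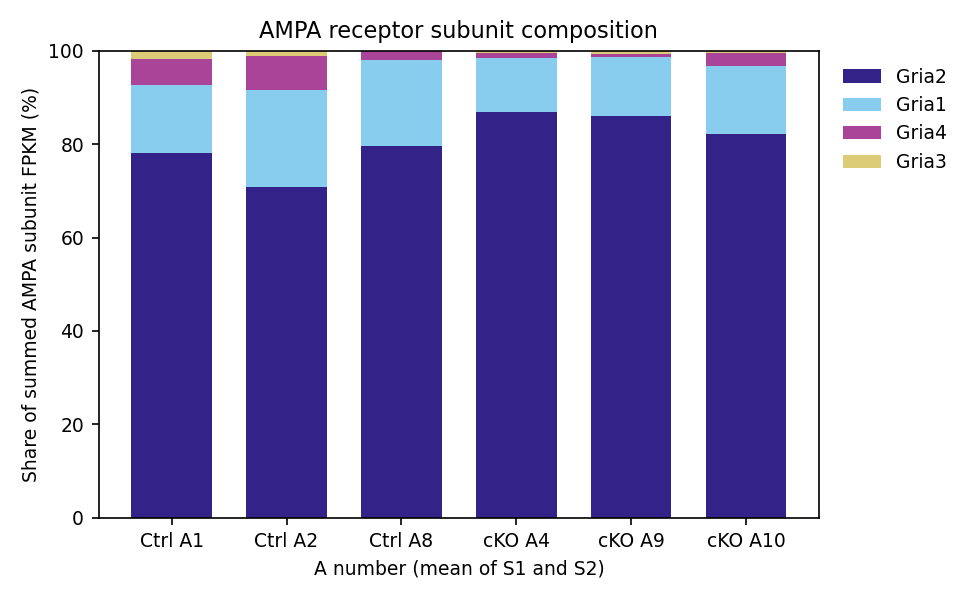
Share of each AMPA subunit gene in the summed FPKM of Gria1, Gria2, Gria3 and Gria4, for each A number (mean of S1 and S2). Gria2 takes 70.8% to 79.7% in the Ctrl units and 82.2% to 86.8% in the cKO units.

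The transcripts of other cell types also differed between the units. The oligodendrocyte score was highest in A1 and A2 (6.99 and 7.18), where Gria4 was highest and Gria2 lowest. It was 6.05 in A8, 5.68 in A10, 4.84 in A9 and 4.40 in A4. In those units, in that order, Gria4 was at 1.24, 1.82, 0.401 and 0.587 FPKM and Gria2 at 52.7, 53.7, 56.1 and 56.9. Gria2 thus rose as the score fell, and Gria4 did not keep the order of the score. All 8 oligodendrocyte genes were lower on average in cKO. The precursor list of 7 genes scored 2.74 to 3.22 in Ctrl and 2.38 to 2.81 in cKO (two-sided exact permutation p = 0.2, n = 3 each), with Pdgfra, which defines precursors, at 0.523 (A1), 1.63 (A2), 0.258 (A8), 0.165 (A4), 0.271 (A9) and 1.29 FPKM (A10). Of the 7 genes, 6 were lower on average in cKO, and their order over the units differed from gene to gene. The neuronal list of 12 genes scored 0.847 to 0.948 in Ctrl and 0.495 to 0.814 in cKO (two-sided exact permutation p = 0.1, n = 3 each), with 4 of its genes at a mean FPKM of 1 or more, and Neurod6 was at 0 in 8 libraries. The microglial list of 6 genes scored 1.08 to 1.23 in Ctrl and 1.32 to 2.09 in cKO, and Tmem119 was at 0 in 8 libraries. The astrocyte list was higher in each cKO unit than in any Ctrl unit (two-sided exact permutation p = 0.1, n = 3 each), with 9 of its 10 genes higher on average in cKO. The part of these cells, and of the share of astrocyte RNA, in the levels of Gria2, Gria4, Grin2c and Grm5 was not tested. Nor was it tested for the other receptor genes or for the auxiliary, scaffold and signalling genes below.

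**Figure D4:**
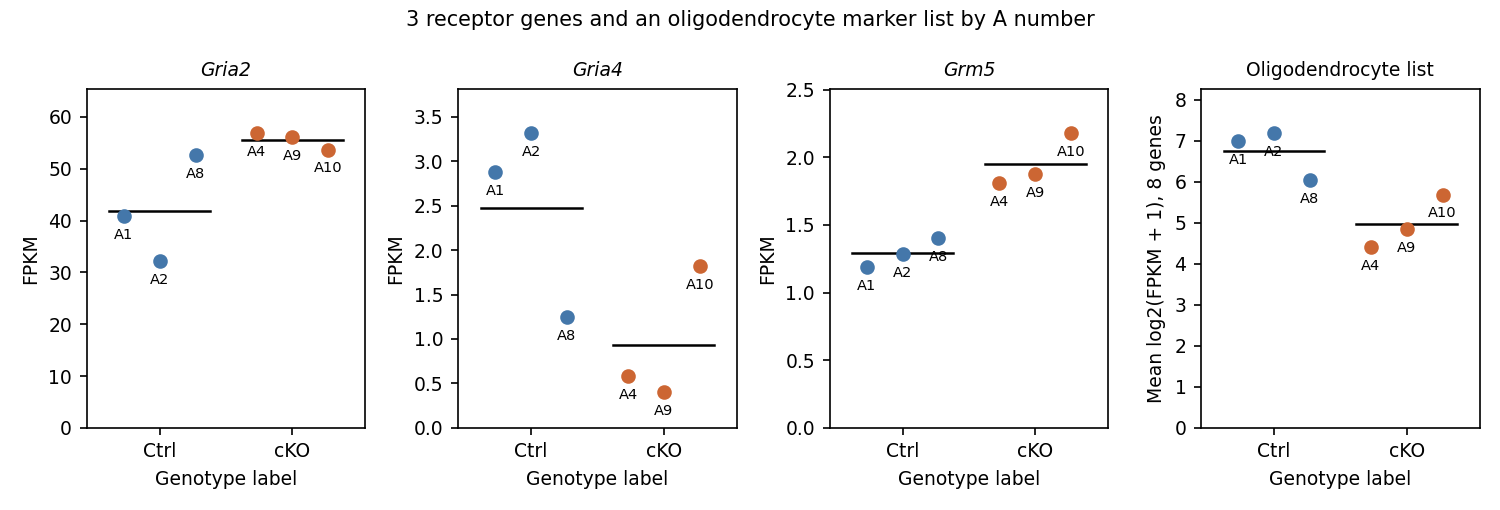
FPKM of Gria2, Gria4 and Grm5 and the mean log2(FPKM + 1) of 8 oligodendrocyte genes, with 1 point per A number and a line at the mean of each genotype. Gria2 and Grm5 do not overlap between genotypes, Gria4 overlaps through A8 and A10, and the oligodendrocyte list is lower in all cKO units than in any Ctrl unit.

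Grik5 was the dominant kainate receptor transcript, and its groups overlapped. Grik5 (ENSMUSG00000003378, chromosome 7, start 24709274, end 24771771, minus strand, 73 exon entries) encodes GluK5, a high-affinity subunit that forms channels together with GluK1, GluK2 or GluK3. It was 15.3 (A1), 14.1 (A2) and 18.4 FPKM (A8) in Ctrl and 16.6 (A4), 15.6 (A9) and 14.4 FPKM (A10) in cKO. The log2 difference was -0.03 (SE 0.14, 95% interval -0.37 to 0.31, limma adjusted p = 0.985), and its sign changed with the scaling, to 0.05 under upper quartile scaling. Grik5 took 64.0% to 73.4% of the summed FPKM of the 5 kainate genes. Grik2, the gene of the partner subunit GluK2, took 20.8% to 28.3%.

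Among the NMDA receptor genes, Grin2c was the most abundant and Grin1 was below 0.5 FPKM in every unit. Grin2c (ENSMUSG00000020734, chromosome 11, start 115139995, end 115158069, minus strand, 28 exon entries) encodes GluN2C, known from cerebellar granule cells and astrocytes. It was 53.7 (A1), 47.4 (A2) and 57.9 FPKM (A8) in Ctrl and 64.0 (A4), 69.6 (A9) and 54.2 FPKM (A10) in cKO. The groups overlapped through A8 and A10, with a log2 difference of 0.23 (SE 0.14, 95% interval -0.09 to 0.56, limma adjusted p = 0.784). Grin2c made up 84.3% to 89.6% of the summed FPKM of the 7 NMDA genes in every unit. Grin3a (ENSMUSG00000039579, chromosome 4, start 49661611, end 49845744, minus strand, 24 exon entries) encodes GluN3A, a subunit that lowers calcium flow and magnesium block. It was 2.92 (A1), 5.49 (A2) and 6.75 FPKM (A8) in Ctrl and 6.52 (A4), 5.14 (A9) and 5.25 FPKM (A10) in cKO. A1 stood below the other 5 units, and the log2 difference of 0.18 (SE 0.27, 95% interval -0.47 to 0.83, limma adjusted p = 0.941) became -0.10 without it.

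Grin1 (ENSMUSG00000026959, chromosome 2, start 25181193, end 25209199, minus strand, 177 exon entries) encodes GluN1. It was 0.457 FPKM in A1, 0.437 in A2, 0.267 in A4, 0.0792 in A9 and 0.324 in A10. In A8 it was listed at 0 in S1 and had 0.5 fragments in S2, both under the floor of 3 fragments, which corresponds to 0.0316 and 0.0196 FPKM there. The highest library held 68 fragments. In the 5 units above the floor, Grin2c exceeded Grin1 by 108 to 879 times per length, and Grin1 made up at most 0.778% of the NMDA gene sum. Of the 9700 exonic bases of Grin1, 1307 overlap Grin1os, a noncoding gene on the opposite strand, and the labels do not say that counting used strand. Grin1 averaged 0.299 ± 0.257 FPKM in Ctrl and 0.223 ± 0.128 in cKO, and the groups overlapped.

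The unit A8 was the highest or the lowest Ctrl unit in 9 of the 10 genes, A1 in 6 and A2 in 5. Over all genes tested, A8 was at an end in 76.3%, A1 in 60.8% and A2 in 62.3%. It was the highest of the 3 Ctrl units in Grm5, Grm7, Gria1, Gria2, Grik5, Grin2c and Grin3a and the lowest in Gria4 and Grin1; Grm3 was the exception. The endothelial score of A8 was 0.757, against 2.87 in A1 and 2.28 in A2, and its ependymal score 3.66, against 5.48 and 5.26. In cKO these scores were 2.48 and 4.57 in A4, 0.691 and 3.39 in A9, and 0.852 and 4.88 in A10. A8 also had the fewest genes above 0, 21342 in S1 and 21572 in S2, against 23669 or more in every other library. The part of these cells and of the number of genes found in the levels of A8 was not tested. Without A8, the log2 difference of Gria2 was 0.60 and that of Gria4 -1.15, both at an unadjusted p under 0.05, where 13.9% of all genes reached that level. Neither passed after adjustment (limma adjusted p = 0.157 and 0.288).

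Of the 16 other glutamate receptor genes, 5 reached a mean FPKM of 1 and 0 passed the test. The 2 of highest level were Grid1 (5.02 ± 1.14 FPKM in Ctrl, 5.48 ± 0.511 in cKO) and Grik2 (5.73 ± 0.676 and 4.72 ± 0.170). Grid1 encodes a delta receptor, which acts as a synaptic adhesion protein. Grik2 was lower in every cKO unit than in any Ctrl unit, with a log2 difference of -0.23 (SE 0.16, limma adjusted p = 0.833). The median log2 difference of the 5 was 0.0031.

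The auxiliary subunits and scaffolds numbered 35 genes, of which 24 were tested and 0 passed. At an unadjusted p under 0.05 there were 3 of 24, all lower in cKO, against 7.69% of all genes tested, and the median log2 difference was -0.07. The 3 were Olfm1, a secreted AMPA receptor partner (9.89 ± 2.74 FPKM in Ctrl, 5.50 ± 1.10 in cKO), Dlg1, the scaffold SAP97 that binds GluA1 (16.0 ± 1.45 and 11.98 ± 0.452), and Shisa9, an AMPA receptor auxiliary protein (6.23 ± 0.253 and 4.44 ± 0.741). The units did not overlap in 7 of the 24 genes, 1 higher and 6 lower in cKO, against 13% of all genes tested. For Olfm1, Dlg1 and Shisa9 the limma adjusted p values were 0.513, 0.516 and 0.624. Besides Dlg1, the highest levels were those of 2 TARPs, proteins that traffic and gate AMPA receptors. Cacng7 was at 20.4 ± 2.47 FPKM in Ctrl and 16.6 ± 1.26 in cKO, and Cacng8 at 8.65 ± 3.24 and 12.1 ± 0.963. The units of both did not overlap, with Cacng7 lower and Cacng8 higher in cKO, and their limma adjusted p values were 0.721 and 0.759. Adarb1, the gene of the enzyme that edits the pore codon of Gria2, was chosen after its values were seen. It was at 2.34 ± 0.412 FPKM in Ctrl and 1.48 ± 0.192 in cKO without overlap (limma adjusted p = 0.764). FPKM carries no information on editing itself.

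Downstream of the metabotropic receptors, 0 genes passed in either list. For Gq signalling under mGluR5, 14 of 16 genes were tested, 0 reached an unadjusted p under 0.05 and the median log2 difference was -0.06. Genes of high level in it were Gnaq, the Gq alpha subunit (31.8 ± 3.68 FPKM in Ctrl, 29.8 ± 1.18 in cKO), and Plcb1, a phospholipase C (19.0 ± 3.36 and 21.5 ± 1.71). For Gi signalling under mGluR3 and mGluR7, 16 of 18 genes were tested, and 4 reached an unadjusted p under 0.05, 2 higher and 2 lower in cKO, against 7.69% of all genes tested, with a median log2 difference of -0.07. The G protein genes Gnao1 (114 ± 13.0 FPKM in Ctrl, 109.8 ± 13.2 in cKO), Gnai2 (57.5 ± 6.74 and 54.1 ± 3.75) and Gnb1 (53.4 ± 5.50 and 49.1 ± 2.52) were highest and overlapped between the genotypes. Gnai1, another Gi alpha subunit, was at 19.7 ± 7.04 FPKM in Ctrl and 7.21 ± 2.60 in cKO, a log2 difference of -1.31 (SE 0.33, limma adjusted p = 0.3801). The adenylyl cyclase genes Adcy5 and Adcy2, whose products make cyclic AMP, went opposite ways, with log2 differences of -0.85 (SE 0.31, limma adjusted p = 0.590) and 0.29 (SE 0.11, limma adjusted p = 0.618).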

How the data were processed

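RNA was sequenced as paired reads from SMART-Seq V4 libraries, per the labels' protocols. The authors deposited FPKM values per gene and library; per the submitters' processing notes, FastQC, STAR, featureCounts and DESeq2 were used with the builds mm10 and GRCm38, and versions and annotation release are not given in the sources used here. Coordinates are those of the deposited table: all 10 genes span as many bases as in GENCODE M21, but 2 share its GRCm38 start and end, so the table's build is uncertain. FPKM times length in kilobases added up to 1000000 for all 12 libraries. Rows sharing a symbol (147 symbols) were summed. The most frequent low value of FPKM times length was taken as 1 fragment; 64.1% to 72.0% of values up to 20 fragments were then whole within 0.01, others falling on fractions of it, and the counting rule is uncertain. Floors of 3 fragments cover counting error only.

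S1 and S2 were averaged as log2(FPKM + 1), and genes whose FPKM averaged 1 or more entered a limma fit (version 3.58.1, R 4.3.3; variance trend, two-sided, Benjamini-Hochberg over 17540 genes, threshold 0.05). Fold changes are on the log2(FPKM + 1) scale, which understates low genes. Marker scores were compared by exact permutation over 20 arrangements in Python 3.11.15 with scipy 1.17.1. The fit was tested on simulated data. The genes and lists were chosen with earlier results of these data known. From each list are named the 3 highest genes and up to 3 with the smallest unadjusted p under 0.05, and all 10 receptor genes. Of the genes this rule names, 2 are not reported here.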

Additional observations from a re-analysis of the deposited data

How the results depend on the processing

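Fitting all 12 libraries with a random effect for A, 112 genes passed, and with the replicate block added 80 passed. Among them were 0 of the 9 tested receptor genes in either fit. These fits set 1 correlation within A for all genes (0.915 and 0.924) and so take S1 and S2 partly as separate units. Their counts therefore do not rest on 3 units a genotype alone. Replicate numbers here separate S1 from S2, and no label ties a Ctrl unit to one of cKO. Leaving out each A number in turn gave 0 to 1 genes, the 1 without A1. Every alternative kept 0 receptor genes past the threshold. Of 181 receptor values under the alternatives, 173 kept their direction. Grik5 turned to 0.046 under upper quartile scaling, 0.0087 in S2 alone and 0.046 with array weights, and ran from -0.11 to 0.074 when each A number was left out. Over the same fits Grm3 ran from -0.052 to 0.10 and Grin3a from -0.10 to 0.39. The cause was not tested. Grin1 could be tested only without a filter on low values (-0.07, limma adjusted p = 0.938). Fragment numbers limit Grm7, Gria4 and Grin1 most.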
